A study of Mus musculus with 4 samples.

Results

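The response of E0771 cells to 6 h with IL-26 was read from a single pair of arrays, the IL-26 array and the vehicle array of that time, which are 2 of the 4 arrays of the study. E0771 cells come from a mammary carcinoma of the mouse and stood in the study for triple-negative tumours, which lack hormone receptors and HER2. The 4 groups were E0771 cells given vehicle for 6 h, IL-26 at 30 ng/ml for 6 h, vehicle for 24 h and IL-26 at 30 ng/ml for 24 h, with 1 array each. No gene was altered in any group, no drug was added, and all arrays come from this 1 line. With 1 array a side there is no replicate spread for any gene, so sizes of differences are given and no test was made. Precision is thus limited by the number of arrays, and no label tells if each array had a culture of its own. In bulk RNA, fewer cells of a kind and less RNA per cell cannot be told apart.

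Each array carried 23474 gene spots for 19316 named genes. The value used is the median intensity of a spot in the scanner's red channel. A gene entered the comparison through probes whose intensity was at least 2 times the mean of the blank spots on both arrays at 6 h, here called well above the blank spots. The blank spots averaged 49.6 with vehicle and 50.2 with IL-26, which set the limits at 99.3 and 100.4. Of the 19316 genes, 8446 (43.7%) passed. Just inside the limit lay Prdm2, at 104 with vehicle and 100.44 with IL-26, and just outside it the ephrin gene Efna2, at 102 and 100.39. Differences are IL-26 minus vehicle on the log2 scale after normalisation, where 0.58 stands for 1.5-fold. Intensities are given as read, before normalisation, and the median gene spot at 6 h was 82.0 with vehicle and 78.9 with IL-26. A gene can thus read lower with IL-26 and still have a difference above 0. A lower limit of 0.32, called the 0.32 limit, was used to count genes either way. An offset of 50 was part of the correction, and it draws the differences of dim genes towards 0.

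IL-26 is a cytokine of the IL-10 family made by T cells and other immune cells. Mice carry no gene for it, so these cells met only the IL-26 that was added. Its known receptor pairs IL-20RA with IL-10RB and signals through Janus kinases to STAT3, a pathway whose usual early targets include the SOCS feedback genes. EphA3, a receptor for IL-26 by the title given to the deposited series, belongs to the Eph receptor tyrosine kinases, whose usual ligands are the ephrins on neighbouring cells. The comparison asks which genes these cells alter in the early hours after IL-26.

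The markers fixed for cell types gave a mixed picture for a carcinoma line. Of 20 mesenchymal markers 12 were well above the blank spots, led by Vim, the intermediate filament gene vimentin (18772 with vehicle and 19168 with IL-26). Others of that list, such as Fn1 (51.7 and 52.5), Tagln (52.4 and 53.2), Thy1 (52.5 and 52.3) and Cdh2 (59.0 and 60.7), lay near the blank spots. Of 20 epithelial markers only Krt8, Cldn4 and Ovol1 passed. Krt8 read 1838 and 1436, while Epcam (59.4 and 61.9), Cdh1 (66.8 and 64.9) and Krt18 (73.4 and 72.5) lay near the blank spots. The leukocyte marker Ptprc read 56.8 and 55.2. Of 17 leukocyte markers 3 passed, Cd68 (421 and 388), Csf1r (112 and 108) and Cd14 (110 and 103). In the other lists 2 of 12 endothelial markers and 2 of 14 adipocyte and muscle markers passed. The summed intensity of the epithelial list was 3423 with vehicle and 2969 with IL-26, most of that gap being Krt8. That of the mesenchymal list was 25334 and 25174. These sums are not normalised, and those of the leukocyte list (1562 and 1498) and the endothelial list (1024 and 978) were lower with IL-26 too. The part of the marked cell types in the differences below was not tested.

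The differences at 6 h were small for nearly all genes. Of the 8446 genes, 8305 (98.3%) lay within the 0.32 limit. Past it were 94 genes higher with IL-26 (1.11%) and 47 lower (0.556%). At 1.5-fold, 5 genes were higher (0.0592%) and 1 was lower (0.0118%). No gene reached 2-fold, the limit used by the study. The standard deviation (SD) of the log2 difference over these genes was 0.12. Over the same genes it was 0.13 for IL-26 at 24 h and 0.36 for 24 h against 6 h in vehicle, where 117 genes had gained 2-fold or more and 45 had lost as much. Over these genes the arrays of different times were thus further apart than those with and without IL-26.

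Repeated spots gave a rough yardstick within the same pair of arrays. Each array held 24 spots of each of 2 positive control probes. All of them lie in row 11 of blocks 1, 5, 9, 13, 17 and 21 of the chip, so other rows and blocks are not covered. The log2 ratio of IL-26 to vehicle was taken before normalisation and without the offset. It ran from -0.47 to 0.22 over the spots of the dimmer control and from -0.35 to 0.28 over those of the brighter. Their pooled SD was 0.13. Among the 275 genes with more than 1 qualifying probe, the pooled SD between probes of a gene was 0.12, and the probes of 134 of these genes disagreed in sign. Both lie close to the SD of 0.12 over all genes, though the control ratios were not normalised as the gene values were. The plot of cumulative shares sets the control spots beside the genes.

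**Figure D1:**
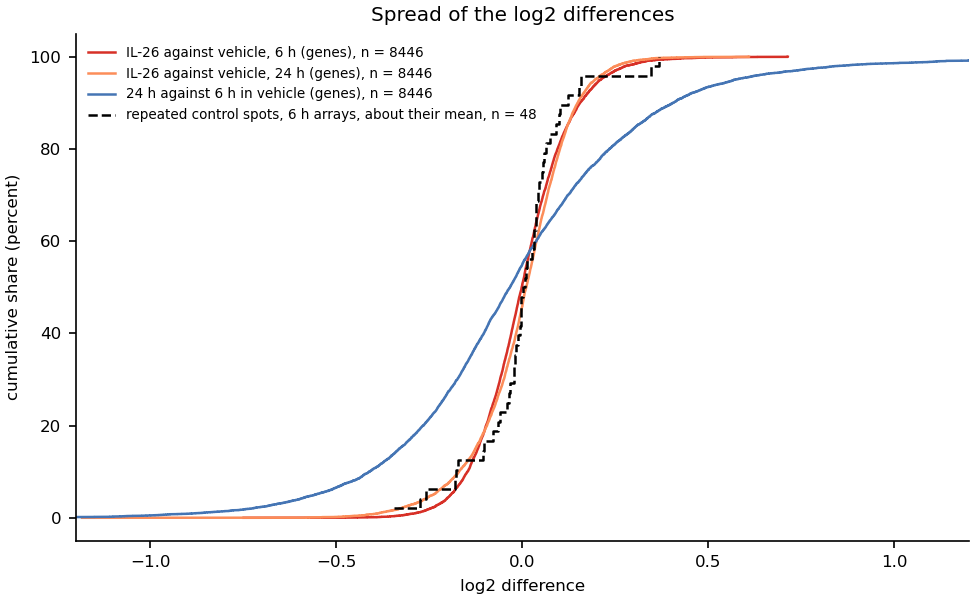
Cumulative share (percent) of log2 differences over 8446 genes for IL-26 against vehicle at 6 h and at 24 h and for 24 h against 6 h in vehicle. The dashed curve shows 48 repeated control spots of the arrays at 6 h, before normalisation, about the mean of their probe. Both IL-26 curves run close to that of the repeated spots, while the curve for time in vehicle is far wider.

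The differences also followed the place of a probe on the chip. The chip has 24 blocks of 11 rows and 104 columns. The median difference of a block at 6 h ran from 0.17 in block 1 to -0.09 in block 6. In 312 windows of 1 block by 8 columns, with a median of 31 probes each, the medians ran from -0.22 to 0.31. Block 1 held 368 (4.36%) of the genes but 55 (58.5%) of the 94 genes past the 0.32 limit upward, and 10 of the 12 highest. The 108 genes in rows 1 and 2 of that block had a median of 0.22 at 6 h and of -0.08 at 24 h. The position-centred difference, from which the median of the gene's own window was taken, is given beside the plain one for most genes below, in brackets. This setting was chosen after the data were seen. It left an SD of 0.085, with 18 genes (0.213%) past the 0.32 limit upward and 17 (0.201%) downward.

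**Figure D2:**
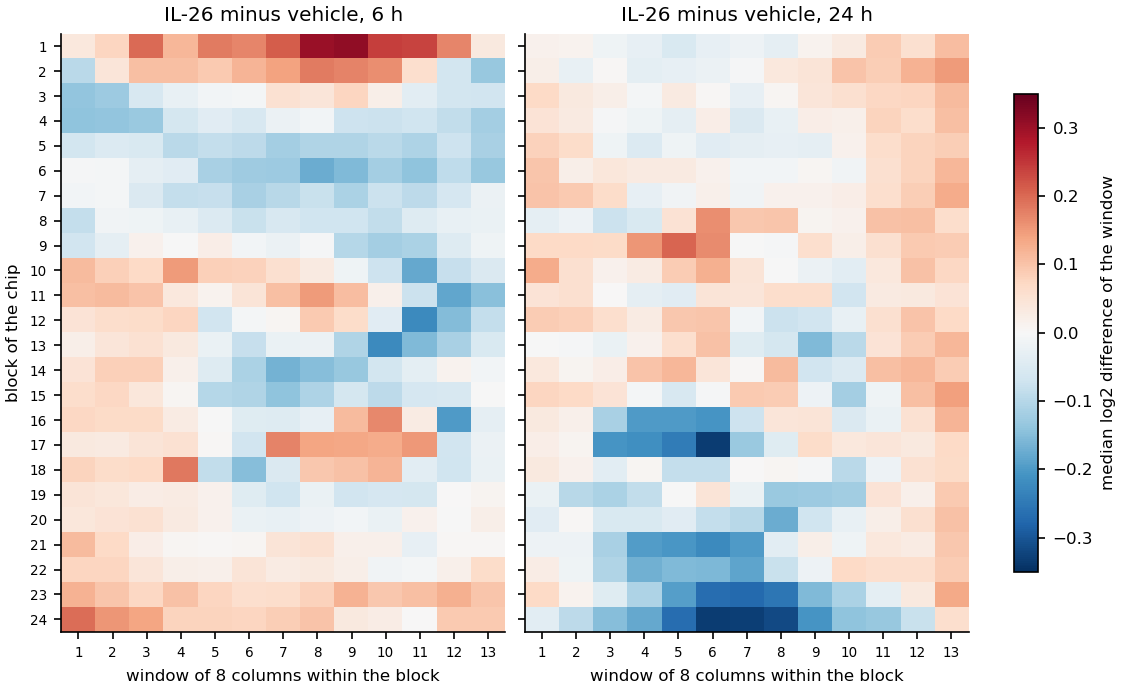
Median log2 difference of IL-26 minus vehicle in each window of the chip (rows are the 24 blocks, columns the windows of 8 spot columns) at 6 h and 24 h, red where IL-26 was higher. At 6 h the upper blocks hold a red patch that reaches 0.31 in block 1, and at 24 h a blue patch that reaches -0.33 lies in the lower blocks.

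The 12 highest differences belonged to genes of unlike function. The highest was Trps1, a GATA-type zinc finger repressor known for its part in bone and breast. Its spot read 127 (vehicle) and 193 (IL-26) at 6 h, against 121 and 92.5 at 24 h. The difference at 6 h was 0.71 (1.64-fold) and the position-centred one 0.65, the highest in both settings. The IL-26 array at 6 h stood above the other 3 arrays, and Trps1 is the dimmest of these 12 genes. Next came Stxbp3, which regulates the fusion of vesicles with the plasma membrane. It gave 241 and 358 at 6 h, a difference of 0.68 (0.37 position-centred), and 510 and 426 at 24 h. In vehicle it was 1.11 higher at 24 h than at 6 h, more than the difference with IL-26.

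Anapc4 encodes a subunit of the anaphase-promoting complex, the ubiquitin ligase that drives exit from mitosis. Its intensities were 1054 (vehicle) and 1489 (IL-26) at 6 h, then 1422 and 1253 at 24 h, a 6 h difference of 0.63 (0.33). Lias, the enzyme that makes lipoic acid, read 383 and 534, a difference of 0.61 (0.30). Rab11a, a small GTPase of recycling endosomes, read 1196 and 1670, a difference of 0.60 (0.29). These 5 genes are the ones past 1.5-fold, and of them Trps1 alone was past it after position-centring.

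Below them lay Sirt2, an NAD-dependent deacetylase, at 515 and 699 (0.57, position-centred 0.33), and Renbp, an epimerase of amino sugars, at 739 and 1021 (0.57, position-centred 0.26). Spen, a corepressor of Notch and nuclear receptor targets, read 384 and 523 (0.57, position-centred 0.33). Nme6, Rpf2 and Tbcb had differences of 0.56, 0.53 and 0.51 and position-centred ones of 0.25, 0.22 and 0.20. Rsad2, which encodes the interferon-induced antiviral enzyme viperin, had 1006 and 1323 at 6 h, then 2610 and 1737 at 24 h. Its difference was 0.52 (0.42) at 6 h and -0.47 (-0.16) at 24 h. Trps1 (block 23) and Rsad2 (block 24) were the only genes of the 12 outside block 1. At 24 h 11 of the 12 genes lay below 0, from -0.47 for Rsad2, and Renbp lay at 0.11.

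The 12 lowest differences were led by Stap2, an adaptor with an SH2 domain that binds signalling kinases. Its spot had 317 (vehicle) and 174 (IL-26) at 6 h, then 235 and 182 at 24 h. The 6 h difference was -0.75 (-0.77 position-centred). The spot lies beside that of Eef1a1, the brightest of its neighbours, which read 58180 and 54951. Whether that neighbour adds to the signal of Stap2 was not tested, and without probes that have a neighbour 20 times as bright no gene was 1.5-fold lower. Nrip1, a corepressor of nuclear receptors that includes the estrogen receptor among its partners, had 453 and 280 at 6 h, then 295 and 259 at 24 h. Its difference was -0.57 (-0.40), the third lowest after position-centring.

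Grina, a membrane protein of the family that restrains stress-induced cell death, read 1000.2 and 616, a difference of -0.54 (-0.32). Nup153, a basket component of the nuclear pore, read 1153 and 753 (-0.48, position-centred -0.30). Psme3, the nuclear proteasome activator, read 659 and 442 (-0.46, position-centred -0.29), and Ifitm2, an interferon-induced membrane protein, read 1076 and 714 (-0.45, position-centred -0.28). The remaining genes ran from -0.45 for Mtmr10 (-0.27) to -0.39 for Nkain1 (-0.17). Among them was Sav1, a scaffold of the Hippo kinases (555 and 378, difference -0.42, position-centred -0.35). Others were Sptssa, a small subunit of serine palmitoyltransferase (-0.44, position-centred -0.26), and Sgpl1, the lyase of sphingosine 1-phosphate (-0.42, position-centred -0.27).

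For most of the 12 lowest genes the vehicle array at 6 h stood apart from the other 3. Psme3 read 420 and 389 at 24 h, Nup153 697 and 644, Sav1 334 and 312, and Sptssa 1040 and 1048, all nearer to the IL-26 value at 6 h than to the vehicle value. At 24 h the differences of the 12 ran from -0.34 for Grina to 0.20 for Sgpl1, with 7 below 0 and 5 above. None of these 12 genes lies in block 1, but most lie in windows with low medians. The window medians were -0.22 for Grina and Nkain1, -0.18 for Nup153 and Sptssa, and -0.17 for Mtmr10. They were -0.17 for Nrip1, Psme3 and Ifitm2, which share a window, and -0.15 for Sgpl1 and Ptbp2. Those of Sav1 and Stap2 were -0.07 and 0.02.

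**Figure D3:**
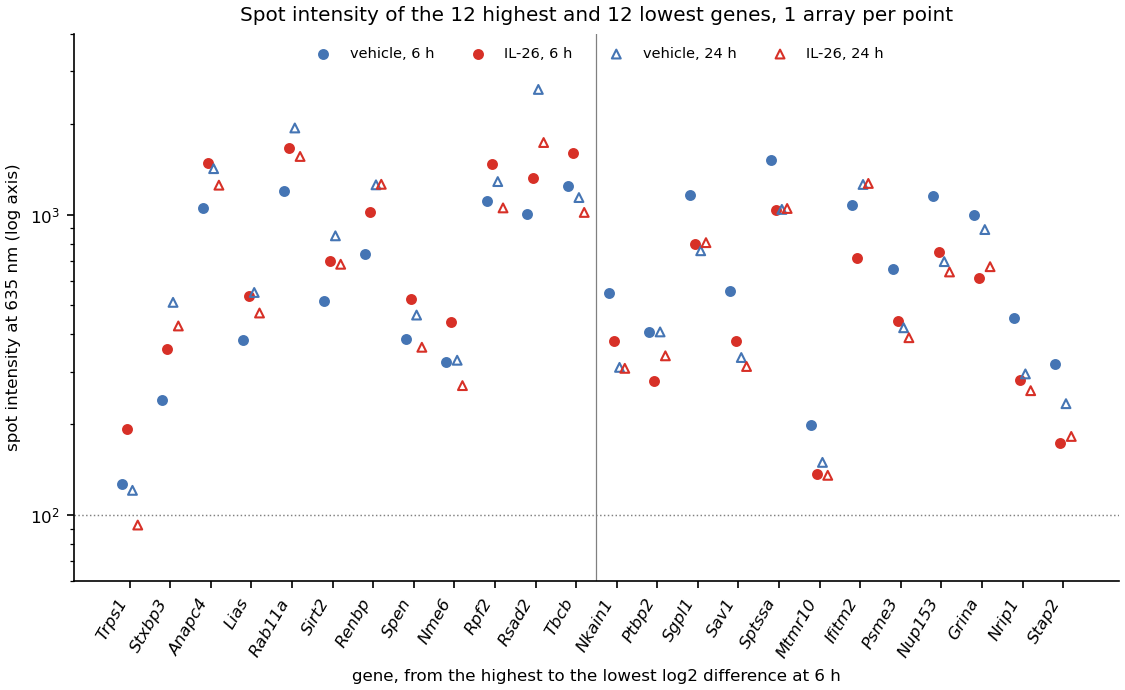
Spot intensity (log axis) of the 12 genes with the highest and the 12 with the lowest log2 difference at 6 h on each of the 4 arrays, 1 point per array; the dotted line marks an intensity of 100. Among the 12 highest the triangles of 24 h mostly turn the order of vehicle and IL-26 around, and among the 12 lowest the vehicle point at 6 h is mostly the highest of the 4, with Renbp the exception to the former and Ifitm2 to the latter.

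**Figure D4:**
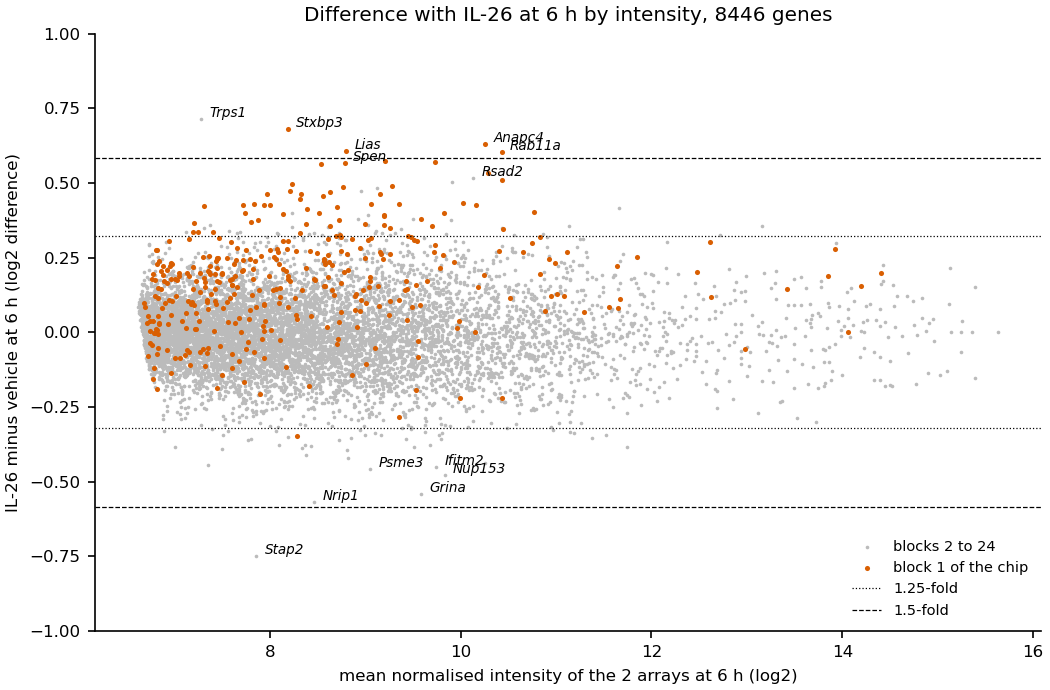
Log2 difference of IL-26 minus vehicle at 6 h against the mean normalised intensity (log2) of the 8446 genes, with genes of block 1 in orange and lines at the 0.32 limit and at 1.5-fold. Most points above the upper line of the 0.32 limit are orange, Trps1 and Rsad2 are not, and no point reaches 1.

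The genes past the 0.32 limit whether or not the difference was position-centred numbered 12 higher and 5 lower. They were picked after their values were seen. Beside Trps1, Stxbp3, Anapc4, Sirt2, Spen and Rsad2, the higher ones were Map2k3, Rad50, Ube2s, H3c1, Cfap20 and Cul4b. Of these 12 genes, Stxbp3, Sirt2, Spen, Map2k3, Rad50, Ube2s, Cfap20 and Cul4b lie in row 1 of their block. Each window holds all rows of its block, so position-centring takes no row pattern out. The part of the row in these differences was not tested. Map2k3, the kinase that activates p38, had 864 (vehicle) and 1139 (IL-26) at 6 h, a difference of 0.50 (0.40), then 666 and 703 at 24 h. Rad50, part of the complex that senses DNA breaks, read 482 and 576 (0.39, position-centred 0.36). Ube2s, which extends ubiquitin chains for the anaphase-promoting complex, had 2175 and 2509 at 6 h (0.36, position-centred 0.35) and 2296 and 1669 at 24 h. Cul4b, a scaffold of ubiquitin ligases, read 254 and 296 (0.33, position-centred 0.35). The lower ones beside Stap2, Nrip1 and Sav1 were the histone gene H3c11 and Rhob, a small GTPase of endosomes and stress. Rhob read 373 and 267 (-0.35, position-centred -0.38), and H3c11, next to a spot at least 20 times as bright, 259 and 187 (-0.36, position-centred -0.44).

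The receptor through which the cells could meet IL-26 was then examined. Il20ra lay at the level of the blank spots, at 50.6 (vehicle) and 48.7 (IL-26) at 6 h, then 56.7 and 52.4 at 24 h, and exceeded the detection limit on none of the 4 arrays. Il10rb was well above them, at 312 and 275 at 6 h, then 262 and 258 at 24 h, with a 6 h difference of -0.05 (-0.08) and a bright neighbour, the Rpl8 spot. Of the 11 receptor chains of the IL-10 and interferon families 5 passed, and their differences ran from -0.05 to 0.01. The interferon chains Ifnar1 and Ifngr1 read 280 and 250, and 328 and 305.

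Epha3 did not pass the limit on the IL-26 array, so its intensity is given and no difference of the normalised values. It had 139 (vehicle) and 75.3 (IL-26) at 6 h, then 89.3 and 63.0 at 24 h, lower with IL-26 at both times and lower at 24 h than at 6 h. Its spot lies beside that of the ribosomal protein gene Rps10, which read 35715 and 30442 at 6 h. The local background that the scanner recorded around the Rps10 spot was 14870 on the vehicle array and 2246 on the other. The part of that light in the Epha3 values was not tested.

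Of 12 Eph receptors on the chip 3 passed. Epha2 read 184 and 165, a difference of -0.05 (-0.17), Ephb4 150 and 138 (-0.02, position-centred 0.00), and Ephb3 131 and 124 (0.02, position-centred 0.13). Epha2 and Ephb3 each have a bright neighbour. The other 8 apart from Epha3 lay between 52.6 and 75.6 on both arrays. Of the 8 ephrins only Efna1 passed, at 375 and 400 (0.23, position-centred 0.19, block 1). No Eph receptor or ephrin past the limit of brightness was past the 0.32 limit, against 1.11% of all genes upward and 0.556% downward.

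In the Janus kinase and STAT group 7 of 10 genes passed. None was past the 0.32 limit, against 1.11% of all genes upward and 0.556% downward. Jak1 read 866 and 768, Stat3 281 and 264, and the group ran from -0.18 for Stat6 (position-centred -0.09) to 0.03 for Stat3, which was the lowest of the group once position-centred, at -0.11. Stat6 has a bright neighbour, the Ncl spot. Of 24 STAT3 targets and SOCS genes 16 passed, with 7 above 0 and a median of -0.08 (0.02 position-centred). Socs1, a feedback inhibitor of Janus kinases, was the lowest at 230 and 186 (-0.21, position-centred -0.12). The highest were Birc5, an inhibitor of apoptosis in dividing cells (0.32, position-centred 0.02, block 1), and the growth regulator Myc, which read 2396 and 2679 (0.31, position-centred 0.26). The median over all 8446 genes was 0.00.

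The EGF receptor and its bypass pathways, AKT and JNK, were the signalling context of the study. Egfr read 155 with vehicle and 152 with IL-26 (0.08, position-centred 0.10) at its probe above the limit. Its second probe, below the limit, read 62.5 and 59.8. In all, 5 of 14 ligand, receptor and feedback genes passed, and the outermost were Errfi1, an inhibitor of the receptor, at 282 and 228 (-0.20, position-centred -0.08), and Lrig1, another inhibitor, at 373 and 424 (0.31, position-centred 0.28). Errfi1 has a bright neighbour, the Gapdh spot, and Lrig1 lies in block 1. Of 25 genes of the PI3K-AKT pathway 15 passed, with a median of -0.05 (-0.05). One of the 15 (6.67%, against 1.11% of all genes) was past the 0.32 limit upward. It was the transcription factor gene Foxo3, at 258 and 315 (0.40, position-centred 0.21), beside a bright neighbour and in block 1. Akt1 read 1110 and 893 (-0.19, position-centred -0.17). The 10 genes of the JNK cascade that passed ran from -0.10 for Map2k4 (0.00) to 0.19 for Mapk9 (0.13), with a median of 0.00 (0.03).

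Genes that usually answer receptor signals within hours came next. Of 17 MAP kinase phosphatases and Sprouty genes 12 passed, from -0.20 for Dusp1 (-0.12) to 0.19 for Dusp10 (0.07), with a median of -0.01 (0.01). Of 24 AP-1 and EGR factors 12 passed, from -0.23 for Jund (406 and 317, position-centred -0.22) to 0.29 for Klf6 (1884 and 2080, position-centred 0.13), with a median of 0.05 that lay at 0.00 position-centred and at -0.01 with median scaling. No member of either list was past the 0.32 limit, where over all genes 1.11% were past it upward and 0.556% downward, so that lists of this size hold few or none at that share.

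The stress genes that the study follows, the ATF4-CHOP arm, which responds when the kinase PERK slows translation under stress of the endoplasmic reticulum (ER), gave 15 of 21 members past the limit. Their median was 0.08 (0.05 position-centred), with 10 above 0 and 12 above 0 position-centred. Atf4, the transcription factor at the head of the arm, had 2337 (vehicle) and 2440 (IL-26) at 6 h, then 3950 and 4323 at 24 h. Its difference was 0.21 (0.08) at 6 h. Ddit3, which encodes CHOP, had 659 and 708 at 6 h (0.23, position-centred 0.04), then 1539 and 1416 at 24 h. Atf3 had 148 and 156 at 6 h (0.17, position-centred 0.07), then 416 and 382 at 24 h. All 3 thus lay above 0 at 6 h, and at 0.08 or less once position-centred. The list median was 0.02 with median scaling of the arrays.

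Ppp1r15a, which encodes the phosphatase subunit GADD34, read 355 and 407 (0.33, position-centred 0.17). It was the only member past the 0.32 limit (6.67%, against 1.11% of all genes upward). The lowest was Atf5, a related transcription factor, at 595 and 486 (-0.18, position-centred -0.17). The targets of the arm that feed amino acid supply had medians near 0. The 13 serine, one-carbon and asparagine synthesis genes had a median of 0.02 (0.03), led by Asns at 3917 and 4151 (0.20, position-centred 0.08), and 17 aminoacyl-tRNA synthetases one of 0.04 (0.06). The 9 amino acid transporters past the limit were led by Slc38a2 at 530 and 564 (0.24, position-centred 0.23). Among 26 ER chaperone and folding genes the median was 0.04 (0.02), with 15 above 0 and 11 below. There Selenos, a membrane protein of ER-associated degradation, read 1340 and 1498 (0.29, position-centred 0.33). The chaperone gene Calr read 964 and 1068 (0.28, position-centred 0.16). The chaperones Canx (4520 and 3473) and Pdia6 (7904 and 6039) both had -0.25 (position-centred -0.13 and -0.07). No member of these 4 lists was past the 0.32 limit without position-centring, against 1.11% of all genes upward and 0.556% downward.

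**Figure D5:**
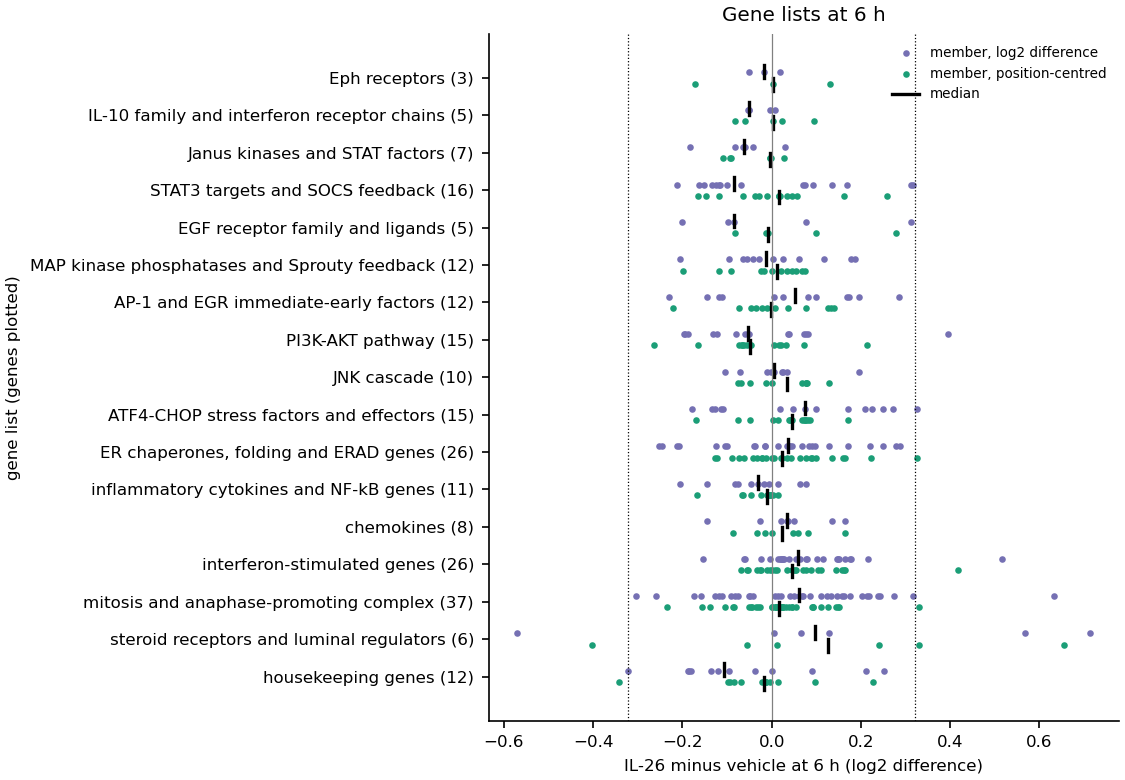
Log2 difference of IL-26 minus vehicle at 6 h of the members of 17 gene lists, as measured (purple) and position-centred (green), with the median of each as a black bar and dotted lines at the 0.32 limit. Few members pass the lines.

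Inflammatory genes were dim or differed little. Il6 read 58.7 and 57.8, Cxcl2 53.7 and 54.1, and Cxcl1 90.0 and 89.8 at 6 h, all short of the limit. At 24 h Cxcl1 read 210 and 195, and Cxcl2 106 and 106, brighter than at 6 h on both arrays. The 11 cytokine and NF-kB genes past the limit had a median of -0.03 (-0.01), from -0.20 for Tnfaip2 (-0.07) to 0.08 for Nfkb2 (-0.00), which has a bright neighbour. Of the 8 chemokines past it, Ccl2 read 2191 and 2006 (0.02, position-centred 0.05), Cxcl10 613 and 575 (0.04, position-centred 0.00) and Ccl5 616 and 513 (-0.14, position-centred -0.01). The highest were Ccl25, beside a bright neighbour, at 111 and 117 (0.17, position-centred 0.06), and Ccl17 at 134 and 138 (0.13, position-centred 0.08). No member of either list was past the 0.32 limit. Over all genes 1.11% were past it upward and 0.556% downward, so that lists of this size hold few or none at that share.

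Of 26 interferon-stimulated genes past the limit 21 lay above 0, with a median of 0.06, against 4154 of all 8446 genes above 0. Position-centred, 17 of the 26 lay above 0, with a median of 0.05. Rsad2 alone (3.85%) was past the 0.32 limit, against 1.11% of all genes upward. Next to it came Xaf1, at 328 and 350 (0.22, position-centred 0.16), and Igtp (0.18, position-centred 0.16), and the lowest was Trim25 (-0.15, position-centred -0.07). The median was 0.01 with median scaling of the arrays. At 24 h it was -0.06. In the list for antigen presentation, Psmb8, a subunit of the immunoproteasome, had 485 and 597 at 6 h (0.43, position-centred 0.25, block 1), then 930 and 680 at 24 h (-0.38). Its list of 15 had a median of 0.03 (0.00).

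The steroid receptor and luminal regulators had a median of 0.10 (0.13), over 6 genes past the limit of 16 on the chip. Past the 0.32 limit were Trps1 and Spen upward (33.3%) and Nrip1 downward (16.7%), against 1.11% and 0.556% of all genes. The list was chosen with earlier results of these data known, so no result about it is drawn from these shares. Spen lies in block 1, and without that block the median was 0.07. The coactivators Ncoa1 and Ncoa3 had 0.13 and 0.00, and 0.01 and -0.06 position-centred. The median was -0.00 at 4 times the blank mean, where only brighter members are left.

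The lists of cell division genes had medians close to 0. Of 37 mitosis and anaphase-promoting complex genes 24 lay above 0, with a median of 0.06 (0.02) that became 0.00 with median scaling. Anapc4 alone (2.70%) was past the 0.32 limit, against 1.11% of all genes upward. The lowest was Ccna2, at 2974 and 2175 (-0.30, position-centred -0.14). In the 31 genes of G1-S and DNA replication the median was 0.02 (0.02). Cdc45, a helicase component, was highest at 359 and 455 (0.47, position-centred 0.27, block 1), and Cdk6 lowest at 196 and 146 (-0.32, position-centred -0.10). Both were past the 0.32 limit, Cdk6 only just. That is 3.23% of the list each way, against 1.11% of all genes upward and 0.556% downward. Cdkn1a, the p53 target that encodes the inhibitor p21, had 402 (vehicle) and 281 (IL-26) at 6 h, then 492 and 464 at 24 h. Its difference was -0.38 (-0.27), while the median of the 13 p53 targets was 0.01 (-0.02).

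In the metabolic and structural lists, too, the counts past the 0.32 limit are to be read against the 1.11% and 0.556% of all genes. The 70 subunits of oxidative phosphorylation, 61 cytosolic and 71 mitochondrial ribosomal proteins had medians of -0.01, -0.00 and -0.02 with no member past it. The cholesterol and fatty acid list (26 genes, median -0.02) held Stard4, a sterol carrier, at 136 and 164 (0.37, position-centred 0.06, block 1). The TGF-beta list (14 genes) had a median of -0.07 (-0.06), with Tgfb1 at 275 and 213 (-0.26, position-centred -0.26) at 6 h, then 210 and 234 at 24 h. The 12 housekeeping genes had the lowest median, -0.11 (-0.02). Among them Ywhaz read 796 and 578 (-0.32, position-centred -0.34), Gapdh 16026 and 13277 (-0.19, position-centred -0.07) and Actb 3652 and 4021 (0.25, position-centred 0.01). Common reference genes thus lay on both sides of 0, with 3 of the list above it and 8 below.

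Of the 44 lists with at least 3 genes past the limit, 43 had a median within 0.1 of 0 and 30 held no gene past the 0.32 limit. After position-centring 43 again had a median within 0.1. With median scaling the median of all genes was -0.05 and 49 genes were past the 0.32 limit upward and 126 downward, so that the sign of a list median of this size depends on the scaling: 16 of 47 list medians turned sign.

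The values that the authors deposited for the same arrays gave a different count. In them 248 of 17727 genes with a value on both arrays at 6 h (1.4%) were at least 2-fold different, 62 higher and 186 lower. Of these, 2 (0.806%) were well above the blank spots. Trps1 was one, at 1.02, and the other was Tada1, a subunit of a histone acetyltransferase complex, whose mean came from a dim probe at 67.2 and 51.9, while its brighter probe read 346 and 322. The median raw intensity of the 248 genes was 54.4 with vehicle and 52.7 with IL-26. Odorant receptors, which are silent outside olfactory tissue as a rule, were past 2-fold in 30 of 734 genes (4.09%), and vomeronasal and taste receptors in 9 of 130 (6.92%). Epha3 was among the 186 lower genes, at -1.71. It is not well above the blank spots and has a bright neighbour, as had 90 (48.4%) of the 186. Of the 62 higher genes 22 (35.5%) had one, against 22.0% of all genes with values. The SD of the difference in these values was 0.16 over genes well above the blank spots and 0.37 over the others.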

How the data were processed

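RNA was amplified, labelled and hybridised to 1-colour chips. Per the file headers, the authors' scanner files give each spot's median intensity and its local background, without subtraction. The value table deposited beside them holds scaled intensity values, and how it was made is not given in the sources used here. No genome build was named. Background came off by normexp, with the blank spots as its estimate (offset 50), taken to log2 and quantile normalised across all 4 arrays (R 4.3.3, limma 3.58.1); tables were made in Python 3.11.15. Of 20690 probes with a symbol, 20556 were renamed through their gene ID. A gene's value is the mean of its qualifying probes, and a scanner flag removed 16 probes. Detection meant the blank mean plus 2 SD.

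By rule, the 12 highest and 12 lowest genes were named, and the 4 highest and 4 lowest of the brightest 2112. So were the 2 highest and 2 lowest of each of 48 lists, and 10 genes in every case. Not all genes of the rule are given above. Other list members, such as Akt1, Ccl2, Cxcl10 and Ifnar1, were named outside it, as were the genes picked after their values were seen. A bright neighbour is 1 of 8 adjacent spots at least 20 times as bright. Members and lists were chosen with earlier results of these data known. The normalisation was tested on simulated data. Settings varied were the scaling, background, offset, value table, brightness filter, bright neighbours and, added after the data were seen, chip position.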

Additional observations from a re-analysis of the deposited data

Results flagged for a closer look

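In 6 genes the difference was past the 0.32 limit one way at 6 h and the other way at 24 h. The change between the times was not tested, since each rests on 1 array a side. Rsad2 had 0.52 at 6 h and -0.47 at 24 h. Psmb8 had 0.43 and -0.38. H3c1, a histone gene beside a bright spot, had 0.36 and -0.32, and Ube2s had 0.36 and -0.36. Taf15, which encodes an RNA-binding protein, had 0.34 and -0.63. Vat1, a membrane protein of vesicles, ran the other way with -0.38 and 0.61. Position-centred, Rsad2 had 0.42 and -0.16, Psmb8 0.25 and -0.33, H3c1 0.35 and -0.08, Ube2s 0.35 and -0.35, Taf15 0.31 and -0.54, and Vat1 -0.25 and 0.59.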

How the results depend on the processing

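The count of genes at least 1.5-fold higher (5) became 2 with median scaling, 11 with the blank mean subtracted and no offset, 9 with an offset of 16, 1 with an offset of 100, 9 in the deposited values, 9 over all detected genes, and 1 with window medians or block medians subtracted or without block 1. The count at least 1.5-fold lower (1) became 3, 4, 2, 6 and 5 with median scaling, blank subtraction, offset 16, deposited values and detected genes, and 0 at 4 times the blank mean or without bright neighbours. Genes at least 2-fold different (0) became 1 with blank subtraction (Trps1), 1 in the deposited values and 2 over all detected genes. Subtracting each spot's local background gave 2791 higher, 3036 lower, 3817 at 2-fold, an SD of 2.49 and -0.37 for Trps1 in place of 0.71. There 1351 qualifying probes (14.0%) had a local background at least as high as the spot on the vehicle array and 0 on the IL-26 array. The arrays' mean local background was 268 (vehicle) and 149 (IL-26) at 6 h, then 242 and 163 at 24 h, lower on the IL-26 array of each time. Its part in the other results was not tested. Of 193 named genes, 23 turned sign with window medians subtracted and 5 with median scaling. No paired analysis was possible because each group has 1 array, and for the same reason no replicate could be left out.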

Other observations

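Few genes were past the 0.32 limit the same way at 6 h and at 24 h, 1 higher and 5 lower, picked after their values were seen. Lin7c, a scaffold of cell junctions, had 253 (vehicle) and 293 (IL-26) at 6 h, then 274 and 325 at 24 h, with differences of 0.33 (0.25 position-centred) and 0.36 (0.24). Grina was lower at both times (-0.54 and -0.34), as was Sla, an adaptor that damps receptor signalling, at 153 and 111 and then 124 and 88.4 (-0.38 and -0.38, position-centred -0.27 and -0.40), beside a bright spot. Cbx7, a Polycomb subunit, had -0.36 and -0.33 and Pdcl3, a helper of protein folding, -0.34 and -0.34, but position-centred both were within the 0.32 limit. H3c11 had -0.36 and -0.58 beside a bright spot. After position-centring at both times, H3c11 (-0.44 and -0.33) alone of these 6 was past the 0.32 limit at both.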
